A study of Danio rerio with 4 samples.

Results

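The genes described here are *col6a1* and *col6a3*, which encode chains of collagen VI, together with the fibrillin genes *fbn1* and *fbn2b*, the fibulin gene *fbln2*, the emilin gene *emilin2a* and the fibronectin gene *fn1a*. They were taken by their symbols from the deposited table of 756 genes, and all 7 were found there, each under the same symbol and NCBI gene ID in the RefSeq gene list. The table compares cells sorted by FACS from dissected zebrafish heads at 48 hours post fertilization (hpf). All larvae were of wildtype genotype and carried the reporters TgBAC(apln:Venus-PEST), a short-lived Venus protein under the control of *apln* sequences of a BAC clone, and Tg(kdrl:Hsa.HRAS-mCherry), which labels endothelial cells. Bulk RNA-seq with Smart-seq2 was performed on 2 libraries of Venus positive, mCherry negative cells, hereafter Venus positive cells, and on 2 libraries of cells negative for both reporters. The sort removed *kdrl*-reporter cells from both groups, the labels call the cells of either group mixed, and the double negative cells are whatever else the head held, so they are no pure cell type. The Venus positive columns of the table bear the numbers 3 and 4, which are not those of the sample labels, and they are named here as in the table.

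Collagen VI is assembled inside the cell from an alpha 1, an alpha 2 and a longer alpha 3-like chain, and outside the cell it forms beaded filaments that link the pericellular matrix to collagen fibrils and basement membranes. Fibrillins polymerize into microfibrils, which carry elastin in elastic fibres and also exist without it, and which hold latent TGF-beta complexes. Fibulins and emilins sit on these fibres, and fibronectin forms the provisional fibrils on which fibrillin and several collagens are laid down in mammalian cells. Fibroblasts of connective tissue, the meninges included, are a main source of these proteins.

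All 7 genes were higher in the Venus positive cells. Their summed normalized read count, the estimated count of a gene divided by a size factor for the library, was 1303 and 2200.2 in double negative replicates 1 and 2 and 10937 and 7661 in Venus positive libraries 3 and 4, a 5.31-fold difference of the means. No gene of the 7 had a double negative library that reached either Venus positive library. The lowest Venus positive value exceeded the highest double negative value by 2.47-fold for *col6a1*, at the lower end, and by 8.06-fold for *fbn1*, at the upper end. In edgeR's quasi-likelihood test over 754 genes of the table, all 7 passed an adjusted p of 0.05, with log2 fold changes between 1.99 for *fbln2* and 3.30 for *fbn1*. These counts have to be read against the table itself: 64.2% of the genes tested were called higher, and both Venus positive libraries lay above both double negative libraries for 64.2% of all 756 genes. In 1 direction or the other, 100% of the 754 genes tested were called, so genes differed only in the direction of their call. Every gene in the table had a deposited Q value under 0.05 for this same contrast, so a call here describes the difference and does not support it independently. The deposited Q values imply 23016 tests, of which the 756 listed genes are a part. The median log2 fold change of the 7 genes, 2.45, was close to the median of all 484 genes called higher, 2.39, and above the 1.85 of all genes tested.

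**Figure D1:**
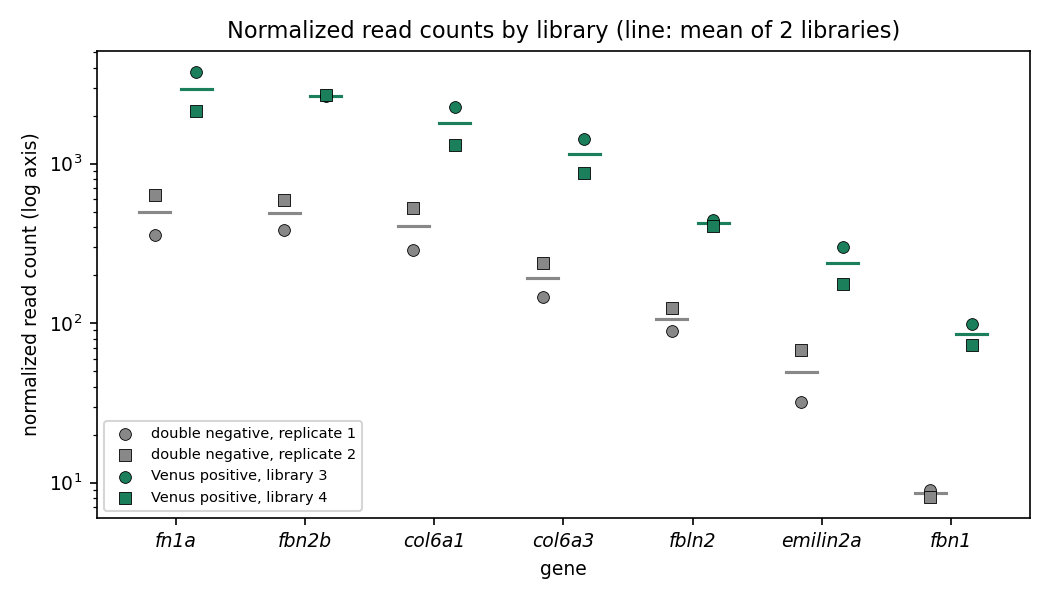
Normalized read counts (log axis) of the 7 genes in each of the 4 libraries, with grey symbols for double negative cells, green symbols for Venus positive cells and a line at the mean of the 2 libraries of a group. The green symbols lie above the grey symbols for every gene, from 72.9 and 99.3 against 8.18 and 9.04 for *fbn1* to 2126 and 3753 against 357 and 639 for *fn1a*, and the libraries of a group lie closest together for *fbn2b* in Venus positive cells.

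*apln*, which encodes the Apelin ligand, is the gene whose BAC sequences drive the Venus reporter. It went from 651 and 802 normalized counts in double negative to 11006 and 8899 in Venus positive libraries, so its level followed the labels. Reads over the listed genes ranged from 876579 to 1175560 per library, which is not the depth of the libraries, because the other genes are not in the table. Neither the labels nor the methods state whether the 2 libraries of a sort derive from different clutches or days, and p-values therefore reflect only how these 4 libraries varied, which may be technical. In bulk samples, fewer cells of a type and less RNA per cell cannot be told apart. Markers of other cells moved with the groups: 15 of 20 erythrocyte genes were in the table, all lower in Venus positive cells, with a summed normalized count of 180730 to 329654 in double negative and 3437 to 4702 in Venus positive libraries. Of 35 epidermal genes 17 were listed, 15 of them lower and *krt18* and *krt94* higher, with sums of 318022 to 378393 against 44146 to 67867. Of 25 skeletal muscle genes 3 were listed, with *ttn.1* and *ttn.2* higher and *pvalb2* lower, and of 16 neural crest and pigment genes 4 were listed, with 3 lower and *xdh* higher. Of all 754 genes tested, 270 were called lower and 484 higher. The part of these markers in the differences of the matrix genes was not tested. None of the markers fixed for endothelium, neurons, neural progenitors, cartilage or macrophages (23, 24, 20, 16 and 16 genes) was in the table, and their levels were not analysed here.

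Which scaling is used matters for the calls. The size factors of the authors, recovered from the table, were used throughout. Scaling instead by TMM or RLE, which set the listed genes near no net change, lowered the median log2 fold change of all tested genes by 1.77 and 1.87. Higher and lower calls then numbered 84 and 270 with TMM and 72 and 270 with RLE, against 484 and 270, or 11.1% and 9.55% of genes called higher against 64.2%. None of the 7 genes was then called in edgeR (0 at an adjusted and 0 at an unadjusted p of 0.05), while none changed its sign, with log2 fold changes of 0.25 to 1.52 with TMM and 0.14 to 1.42 with RLE. The table holds only genes selected for a difference. Scale factors implied by the deposited TPM values, which rest on whole libraries, gave 7 of 7 calls. Over all genes tested they gave 484 higher calls, as did the size factors of the authors. With the adjustment extended to the 23016 tests that the deposited Q values imply, 4 of the 7 passed in edgeR, namely *col6a1*, *col6a3*, *fbn2b* and *fn1a*, when 29.7% of the genes tested were called higher. This count changed with the library left out, which leaves 1 library in a group. Genes passing over the whole table were not counted in those fits, so the change cannot be read as particular to the 7.

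Among the collagen VI chains, *col6a1*, encoding the alpha 1 chain, had 286 and 530 normalized counts in double negative replicates 1 and 2 and 2280.1 and 1308 in Venus positive libraries 3 and 4. Replicate 2 was the higher of the double negative and library 3 the higher of the Venus positive libraries, and the groups did not overlap. The means were 408 ± 172 and 1794 ± 687 (SD, n = 2 each), a 4.40-fold difference with a log2 fold change of 2.14 (SE 0.51, edgeR adjusted p = 0.00127). *col6a3* encodes the alpha 3 chain, the long chain with many von Willebrand factor A domains, whose C-terminal end is released as endotrophin in mice and humans. Its normalized counts were 146 and 237 in double negative and 1424 and 875 in Venus positive libraries. It rose 5.997-fold, from 192 ± 64.3 to 1149.8 ± 388 (SD, n = 2 each), with a log2 fold change of 2.58 (SE 0.53, edgeR adjusted p = 0.000482). In both groups the libraries were ordered as for *col6a1*, with replicate 2 above replicate 1 and library 3 above library 4.

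One more collagen VI gene of the table, *col6a4a*, which encodes a chain of the alpha 3-like class, had 302 and 550 normalized counts in double negative and 7432 and 3237 in Venus positive libraries. Its log2 fold change of 3.65 (SE 0.55, edgeR adjusted p = 5.57e-05) exceeded those of both other chains. Per transcript length, its average TPM was 0.586 times that of *col6a1* in double negative cells and 1.64 times in Venus positive cells. Within a library, the ratio of *col6a4a* to *col6a1* reads was 1.06 and 1.04 in double negative and 3.26 and 2.47 in Venus positive libraries, a difference of 1.44 on the log2 scale. The ratio of *col6a3* to *col6a1* reads was 0.511 and 0.448 in double negative and 0.625 and 0.669 in Venus positive libraries, a smaller difference of 0.43 on the log2 scale. A ratio within a library does not depend on the size factors, and neither ratio overlapped between groups. The ratios rest on the same counts as the fold changes of the paired genes. How often other pairs of genes show no overlap was not determined. The two-sided exact permutation test gave p = 0.333 for both, which is the smallest p that 2 libraries against 2 allow. The authors' group averages of TPM, which divide by transcript length, gave log2 differences of 1.49 and 0.45 for these ratios. *col6a2*, which lies beside *col6a1* in the RefSeq list with 2 unnamed loci between them and encodes the remaining chain of the trimer, was not analysed here.

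**Figure D2:**
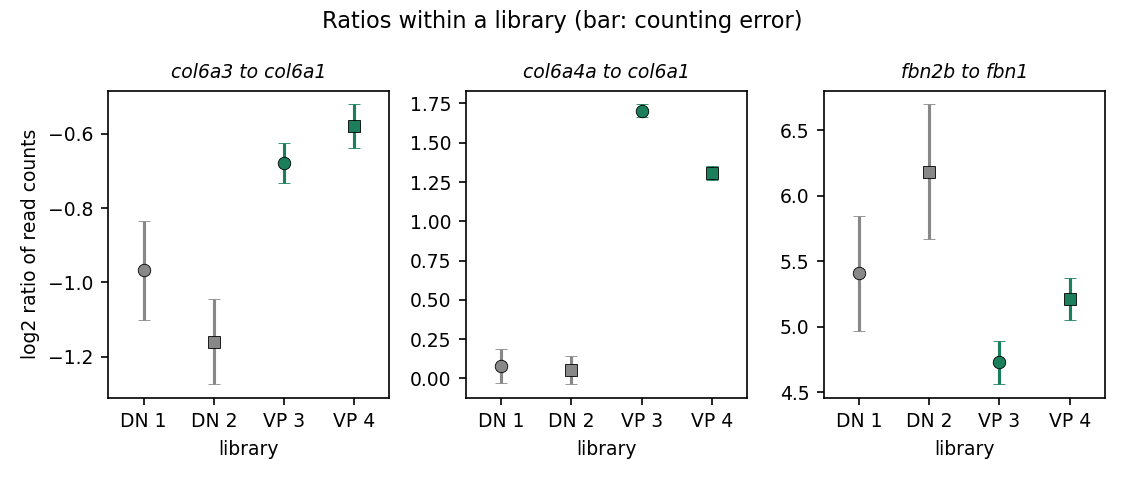
Log2 ratios of read counts of paired genes within each library, for double negative replicates 1 and 2 (DN 1, DN 2, grey) and Venus positive libraries 3 and 4 (VP 3, VP 4, green), with bars for the standard error (log2) from counting alone. The ratio of *col6a3* to *col6a1* and of *col6a4a* to *col6a1* was higher in both Venus positive libraries, and the ratio of *fbn2b* to *fbn1* was lower in both, with wide bars for the double negative replicates, in which *fbn1* had 11 and 8 reads.

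Of 24 genes chosen as partners of collagen VI (receptors, collagen-binding proteoglycans and the like), 6 were in the table and all 6 were called higher, beside 64.2% of all genes tested in a table selected for this contrast. *fmoda*, encoding the fibril proteoglycan fibromodulin, had the largest log2 fold change among them, 4.46, with 1711 and 1672 normalized counts in double negative and 34502 and 40001 in Venus positive libraries. *antxr2a*, whose mouse counterpart is an endocytic receptor for collagen VI, went from 253 and 339 to 2537 and 1452 normalized counts, with a log2 fold change of 2.75 (SE 0.50). The proteoglycans *dcn* and *lum*, whose products bind collagen, rose by log2 fold changes of 1.95 and 2.11, the collagen receptor *ddr2a* by 2.80 and the collagen uptake receptor *mrc2* by 2.11. The libraries of *dcn* and *lum* differed little within a group, by at most 0.25 on the log2 scale, whereas those of *mrc2* differed by 1.03 in double negative and 0.80 in Venus positive cells.

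The fibrillin genes differed widely in level. Per transcript length, the average TPM of *fbn2b* was 34.5 times that of *fbn1* in double negative and 19.5 times in Venus positive cells. *fbn1*, whose human counterpart is mutated in Marfan syndrome, rested on 11 and 8 reads in double negative and 79 and 84 in Venus positive libraries, or 9.04 and 8.18 against 99.3 and 72.9 normalized counts. The exact Poisson 95% intervals, which cover counting error only, were 4.51 to 16.2 and 3.53 to 16.1 for the double negative libraries and 78.6 to 124 and 58.1 to 90.2 for the Venus positive libraries. This was the highest fold change of the 7 genes, from a mean of 8.61 ± 0.607 to 86.1 ± 18.7 (SD, n = 2 each), with the widest error (log2 fold change 3.30, SE 0.88, edgeR adjusted p = 0.00255). *fbn2b*, which is needed for fin fold morphogenesis in zebrafish, had 384 and 594 normalized counts in double negative and 2636 and 2697 in Venus positive libraries. It had the smallest standard error of the 7, with a 5.45-fold increase from 489 ± 149 to 2666 ± 42.9 (SD, n = 2 each; log2 fold change 2.45, SE 0.47, edgeR adjusted p = 0.000334). Its Venus positive libraries agreed within counting error, with Poisson 95% intervals of 2524 to 2751 and 2603 to 2793.

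Reads of *fbn2b* outnumbered those of *fbn1* in every library. The ratio was 42.5 and 72.6 in double negative and 26.5 and 37.0 in Venus positive libraries, lower by 0.83 on the log2 scale in Venus positive cells, with SDs of 0.55 and 0.34 within the groups. The groups did not overlap, but double negative replicate 1 and Venus positive library 4 lay within the counting error of the former (exact permutation p = 0.333, two-sided). Without double negative replicate 2 the difference was 0.44 lower in Venus positive cells, and without replicate 1 it was 1.21 lower. Of 6 fibrillin genes on the list, no further one was in the table.

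Among the proteins that sit on microfibrils, fibulin-2, encoded by *fbln2*, binds fibronectin, fibrillin and basement membrane proteins. Its gene had 88.7 and 125 normalized counts in double negative and, closer together, 444 and 406 in Venus positive libraries. This was the lowest increase of the 7, 3.98-fold from 107 ± 25.5 to 425 ± 26.6 (SD, n = 2 each; log2 fold change 1.99, SE 0.63, edgeR adjusted p = 0.00625). Another member of the fibulin family, *hmcn1*, which encodes the very large hemicentin 1, went from 104 and 150 to 1668 and 1072 normalized counts, with a log2 fold change of 3.43 (SE 0.53).

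*emilin2a* encodes an emilin, a glycoprotein of the interface between elastin and microfibrils. It had 32.04 and 67.5 normalized counts in double negative and 300.4 and 176 in Venus positive libraries, and the pair of double negative libraries stood further apart than for any other of the 7 genes, by 1.07 on the log2 scale. The mean rose 4.79-fold, from 49.8 ± 25.1 to 238 ± 87.9 (SD, n = 2 each; log2 fold change 2.26, SE 0.76, edgeR adjusted p = 0.00897). Its paralogue *emilin1a* had 315 and 410 normalized counts in double negative and 1985 and 1166 in Venus positive libraries, a log2 fold change of 2.12 (SE 0.49). *emilin2a* had 0.102 and 0.165 reads for each *emilin1a* read in double negative libraries and 0.151 in each Venus positive library, and these ranges overlapped. Without double negative replicate 1, which leaves 1 library in that group, the log2 fold change was 1.77 for *fbln2* and 1.82 for *emilin2a*. Calls from fits with a library left out are given at the end, beside those of all genes.

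Few other genes of elastic fibres were in the table. Of 17 genes for microfibril-associated proteins, *mfap2* and *adamts10* were listed and called higher, beside 64.2% of all genes tested. *mfap2*, encoding a small glycoprotein of microfibrils, had 327 and 169 normalized counts in double negative and 547 and 1465 in Venus positive libraries, the reverse of the library order of *col6a1* in both groups. Its log2 fold change was 2.02 (SE 0.58) with all libraries and 1.14 without Venus positive library 4, with an edgeR adjusted p of 0.0811. *adamts10*, whose product binds fibrillin-1 in mammals, went from 96.1 and 101 to 577 and 436 normalized counts, a log2 fold change of 2.36 (SE 0.61). Of 13 genes for elastin and its cross-linking enzymes, only the lysyl oxidase-like gene *loxl3b* was listed, with 136 and 118 normalized counts in double negative and 967 and 674 in Venus positive libraries, a log2 fold change of 2.69 (SE 0.54).

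*fn1a* encodes fibronectin, a dimeric glycoprotein that cells assemble into fibrils through integrins and that zebrafish need for migration of the heart primordia. It had 357 and 639 normalized counts in double negative and 3753 and 2126 in Venus positive libraries. Library 3 stood well above library 4, with Poisson 95% intervals of 3620 to 3890 and 2042 to 2212, and both stood above either double negative library. The mean rose 5.90-fold, from 498 ± 199 to 2939 ± 1151 (SD, n = 2 each; log2 fold change 2.56, SE 0.50, edgeR adjusted p = 0.000382).

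Of 18 genes for fibronectin receptors and cross-linking, 7 were in the table and called higher, beside 64.2% of all genes tested. The integrin alpha genes *itga9*, *itga4* and *itga8* had log2 fold changes of 3.89, 3.14 and 3.00, from low levels of 14.8 to 59.3 normalized counts in the double negative libraries. For *itga9* the Venus positive libraries held 460 and 182 normalized counts, further apart than for *fn1a*. The beta chain genes *itgb5* and *itgb1a* had log2 fold changes of 2.63 and 1.71, the syndecan gene *sdc2* of 2.15 and the transglutaminase gene *tgm2b* of 2.63. The call of *itgb1a* was lost without double negative replicate 1 (edgeR adjusted p = 0.0610) or without Venus positive library 3 (0.0846), and its log2 fold change was -0.06 with TMM and -0.18 with RLE scaling.

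Of 30 genes on a list for versican and matricellular proteins, 6 were in the table, all called higher, beside 64.2% of all genes tested. No versican gene was among the 6. The tenascin gene *tnw* had the highest TPM of them, 152 in double negative and 1169 in Venus positive cells, with 4993 and 5124 normalized counts in double negative and 35280.2 and 33682 in Venus positive libraries, a log2 fold change of 2.77 (SE 0.46). The thrombospondin genes *thbs3b*, *thbs1a*, *thbs1b* and *thbs2b* had log2 fold changes of 3.63, 3.15, 2.24 and 2.18, and *svep1*, encoding a large adhesion protein with sushi domains, had 3.46. Of 5 genes for TGF-beta ligands, which are stored on fibrillin microfibrils as latent complexes, 2 were listed. *tgfb1a* went from 19.7 and 18.4 to 239 and 138 normalized counts, a log2 fold change of 3.29 (SE 0.82). *tgfb3* went from 407 and 411 to 968 and 1367, a log2 fold change of 1.51 (SE 0.48) that turned to -0.23 with TMM and -0.32 with RLE scaling and lost its call without Venus positive library 4 (edgeR adjusted p = 0.0522).

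In all, the lists named 133 matrix genes besides the 7, of which 27 were in the table and 106 were not analysed here. All 27 were called higher, against 64.2% of the genes tested, with a median log2 fold change of 2.69, beside 2.39 for all genes called higher. The table was selected on this contrast and the lists were chosen with earlier results of these data known. These counts are thus a description and no independent support. When the adjustment was extended to the 23016 implied tests, 19 of the 27 passed, against 29.7% of the genes tested. With TMM or RLE scaling 7 of the 27 passed, against 11.1% and 9.55% of the genes tested, and the log2 fold changes of *itgb1a* and *tgfb3* turned negative. The genes of these lists that passed with RLE scaling were *fmoda*, *itga9*, *col6a4a*, *thbs3b*, *svep1*, *hmcn1* and *thbs1a*, with log2 fold changes of 1.34 for *thbs1a* to 2.61 for *fmoda*.

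**Figure D3:**
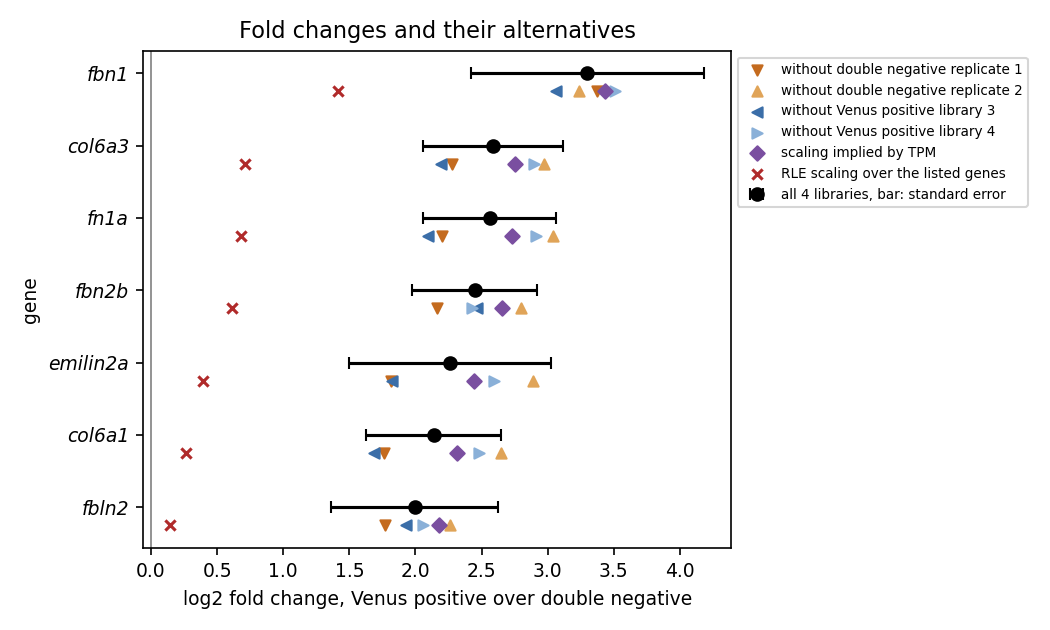
Log2 fold changes (Venus positive over double negative) of the 7 genes from edgeR with all 4 libraries (black, bar for the standard error), with 1 library left out (triangles), with the scaling implied by TPM (diamonds) and with RLE factors from the genes of the table (crosses). All values lie above 0, and the crosses, between 0.14 and 1.42, lie below every other value of the same gene.

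*fbn1* had the highest log2 fold change of the 7 genes whichever library was left out. Leaving out 1 library at a time, the log2 fold change ranged from 1.68 to 2.65 for *col6a1*, from 2.19 to 2.97 for *col6a3*, from 3.06 to 3.51 for *fbn1* and from 2.17 to 2.80 for *fbn2b*. It ranged from 1.77 to 2.26 for *fbln2*, from 1.82 to 2.89 for *emilin2a* and from 2.09 to 3.04 for *fn1a*. The standard errors of the main values, 0.47 to 0.88, were of the size of the differences between most of the genes. The order of the 7 by fold change is therefore not resolved with 4 libraries. This includes the first place of *fbn1*, at 3.30 (SE 0.88) beside 2.58 (SE 0.53) for *col6a3*. Without double negative replicate 2, *fbn1* stood at 3.23 and *fn1a* at 3.04. Among the 484 genes called higher, the 7 stood between rank 92 for *fbn1* and rank 333 for *fbln2* by log2 fold change.

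Libraries of a group differed in the same direction for most of the 7 genes. Double negative replicate 2 was above replicate 1 for 6 of the 7, by 0.49 for *fbln2* to 1.07 for *emilin2a* on the log2 scale, and *fbn1* differed by -0.14. Venus positive library 3 was above library 4 for the same 6 with *fbn1* in place of *fbn2b*: by 0.80 for *col6a1*, 0.70 for *col6a3*, 0.82 for *fn1a*, 0.77 for *emilin2a*, 0.45 for *fbn1* and 0.13 for *fbln2*, with -0.03 for *fbn2b*. Among the 560 genes of the table that reached 10 counts in all 4 libraries, the median log2 difference was 0.32 between the double negative and 0.31 between the Venus positive libraries, with 10th and 90th percentiles of -0.59 and 1.11 and of -0.78 and 1.24. The values of the 7 genes thus lay inside the range of most listed genes.

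The shares of the 7 genes in their common sum do not depend on the scaling. *fn1a* made up 27.4% and 29.0% of the summed normalized counts in double negative and 34.3% and 27.7% in Venus positive libraries, and *fbn2b* 29.4% and 27.0% against 24.1% and 35.2%. *col6a1* held 21.9% and 24.1% in double negative and 20.8% and 17.1% in Venus positive libraries, and *col6a3* 11.2% and 10.8% against 13.0% and 11.4%. The share of *fbln2* was 6.81% and 5.67% against 4.06% and 5.30%, and that of *emilin2a* was 2.46% and 3.07% against 2.75% and 2.30%. *fbn1* held the smallest share, with 0.694% and 0.372% against 0.908% and 0.951%. The groups overlapped for *fn1a*, *fbn2b* and *emilin2a*, while *col6a1* and *fbln2* had lower and *col6a3* and *fbn1* higher shares in both Venus positive libraries. These separations were not tested, and 2 libraries against 2 allow no exact permutation p below 0.333. The nearest libraries lay close, as with 11.2% and 11.4% for *col6a3*, and *fbn1* had only 11 and 8 double negative reads. Shares of a common sum also depend on each other, so no shift in composition is concluded.

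Levels between genes were compared per transcript length, as TPM. In the authors' averages for Venus positive cells, *fn1a* (37.3 TPM) and *col6a1* (36.1 TPM) were highest, followed by *fbn2b* (29.4 TPM), *fbln2* (9.335 TPM), *emilin2a* (5.775 TPM), *col6a3* (3.78 TPM) and *fbn1* (1.505 TPM). In double negative cells the averages were 7.25 TPM for *col6a1*, 5.585 for *fn1a*, 4.655 for *fbn2b*, 2.05 for *fbln2*, 1.055 for *emilin2a*, 0.555 for *col6a3* and 0.135 for *fbn1*. The order was the same in each double negative library, but the ranges of the libraries overlapped for *col6a1* (6.02 and 8.48 TPM) and *fn1a* (4.73 and 6.44 TPM) and for *fn1a* and *fbn2b* (4.27 and 5.04 TPM). The Venus positive averages carry no error here. *col6a3* ranked lower by TPM than by counts, because the deposited counts and TPM imply a transcript 6.16 to 6.23 times as long as that of *col6a1*. The TPM ratio of *col6a3* to *col6a1* was 0.0766 in double negative and 0.105 in Venus positive cells. As folds of the TPM averages, the increases ran from 4.55 for *fbln2* to 11.1 for *fbn1*.

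**Figure D4:**
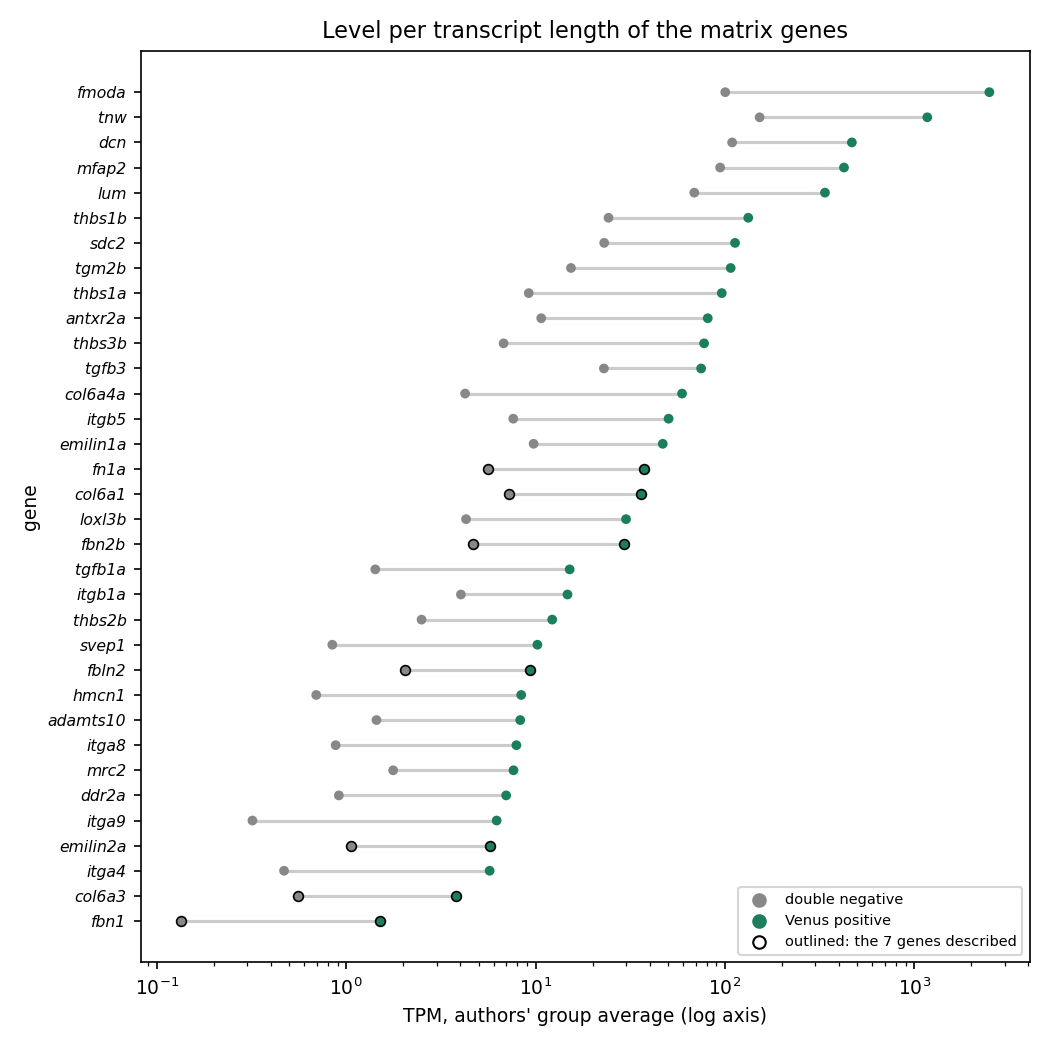
Group averages of TPM as the authors deposited them (log axis) for the 7 genes (outlined) and the 27 other matrix genes of the table, with grey points for double negative cells and green points for Venus positive cells. All 34 genes had the higher average in Venus positive cells, from 1.505 TPM for *fbn1* to 2486 TPM for *fmoda*, and *col6a4a* at 59.3 TPM lay above *col6a1* at 36.1 TPM in these cells.

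The genes most like each of the 7 in profile were sought by the distance between log2(normalized count + 1) values over the 4 libraries. Each gene was centred on its own mean. The search covered 466 genes whose normalized counts averaged 100 or more. Genes with automatic identifiers, such as those beginning with LOC, si: or zgc:, were left out, so nearer genes among them would have been missed. For *col6a1* they were *wfdc2*, *mrc2* and *ccdc80l1*, and *wfdc2* at a distance of 0.0267 was the nearest pair found. For *col6a3* they were *fn1a* (0.132), *col5a1* and *antxr2a*, and for *fn1a* they were *col5a1* (0.0941), *col6a3* and *tns2a*, so that *col6a3* and *fn1a* appeared on each other's lists. *col5a1*, the gene of a fibrillar collagen V chain, had 2256 and 4124 normalized counts in double negative and 22824 and 12587 in Venus positive libraries. For *emilin2a* they were *col12a1b* (0.0341), *smad9* and *mrc2*. For *fbn2b* they were *cthrc1a* (0.0662), *olfml3b* and *angptl5*, all with Venus positive libraries close together, and for *fbln2* they were *c1qtnf12* (0.0893), *tfpia* and *dchs1a*. For *fbn1* they were *mkxa* (0.246), *tgfb1a* and *colec12*, and none of the 466 genes came as near to it as to the others. *fbn1* itself had group means of only 8.61 and 86.1 normalized counts. Genes averaging below 100 were not searched, so nearer genes at its own level would have been missed. With a pseudocount of 10 in place of 1, 12 of these 21 neighbours stayed, including all 3 of *fbn2b* and none of *fbn1*.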

How the data were processed

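The authors filtered Smart-seq2 reads with SOAPnuke, mapped them to GRCz11 with HISAT2 2.0.4, aligned them to the gene set with Bowtie2 2.4.4, estimated expression with RSEM 1.2.28 and compared the groups with DESeq2 (versions from the submitters' processing notes). The deposited table holds, per gene, expected counts that RSEM estimated, normalized counts (a signal: the authors raised the count to a whole number and divided it by a size factor), TPM and FPKM. The deposited p-values and Q values were read only for the threshold of the list (0.05) and the number of tests they imply (23016). The authors' comparisons fill 22 columns, 18 of them between single libraries, and apart from these p-values and Q values they were not used. Another 6 per-library columns were not used either.

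Counts of the double negative libraries were raised to whole numbers, and those of the Venus positive libraries were normalized counts times the size factor. All 756 genes gave whole reads within 0.01. The recovered size factors were 1.22 (replicate 1) and 0.98 (replicate 2) for double negative cells and 0.80 and 1.15 for Venus positive libraries 3 and 4. edgeR 4.0.16 (R 4.3.3), quasi-likelihood, two-sided with Benjamini-Hochberg adjustment, was fitted to the 754 genes that reached 10 counts in 2 or more libraries, with no covariate. The SE given for a log2 fold change is its absolute value divided by the square root of that test's F statistic. The fit was also tried on simulated data with these size factors, in which most genes were unchanged. Such data do not bear on the choice of scaling or on a table selected for a difference. The biological coefficient of variation, 0.417, comes from genes selected for a difference. Ratios were compared by an exact permutation test, planned for *col6a3* to *col6a1* and *fbn2b* to *fbn1*. The ratios of *col6a4a* to *col6a1* and of *emilin2a* to *emilin1a* were not in that plan. The alternatives were TMM and RLE scaling, DESeq2 1.42.0, voom in limma 3.58.1, other count minimums, left-out libraries and, added after seeing the data, scale factors implied by TPM and by FPKM.

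The 7 genes and the 21 gene lists were chosen with earlier results of these data known. The genes named are the 7, *apln* and every gene of the matrix lists that is in the table. For each of the 7, the 3 nearest genes by profile among those searched are also named. Examples from the marker lists of other cells and *col6a2*, which was not analysed, are named as well. Gene IDs are NCBI IDs (737 of 756 found in RefSeq, assembly GRCz12tu, used for names and neighbours only). The reads carry no molecular identifiers, so intervals cover counting error only. Genes with near-identical copies may share reads.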

Additional observations from a re-analysis of the deposited data

How the results depend on the processing

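The 7 higher calls held in edgeR without a count minimum, in DESeq2, in voom and with scale factors implied by TPM or FPKM, and none of the 7 changed sign in any alternative. Over all genes tested, higher calls held too, at 485, 484, 483, 484 and 484 in these settings against 484 in the main fit. A minimum of 100 counts removed *fbn1* from the test and kept the other 6. Of the 614 genes then tested, 435 were called higher and 179 lower. Adjusted over the implied tests, 4 of the 7 and 224 of the 484 genes called higher passed. TMM scaling left 0 of the 7, 7 of the 27 matrix genes and 84 genes higher, and RLE scaling left 0, 7 and 72. The median log2 fold change of all tested genes was then 0.08 with TMM and -0.02 with RLE. Which scaling suits these libraries was not tested. Over the implied tests, the 4 calls became 5 in DESeq2, 4 without a count minimum, and 4 and 3 with scale factors implied by TPM and FPKM. They became 0 with TMM, 0 with RLE, 2 in voom and 0 with a minimum of 100 counts, which leaves *fbn1* out. The causes of these changes were not tested, and genes passing over the whole table were not counted in these fits. In the TMM and RLE fits with edgeR 0 of the 7 reached an unadjusted p of 0.05 either, and adjusted p-values ran from 0.135 to 0.879. The 270 genes called lower became 179 with a minimum of 100 counts, since fewer genes were tested.

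Leaving out 1 library at a time gave 5 to 7 of the 7 genes, 25 to 27 of the 27 matrix genes, 400 to 448 genes higher and 131 to 268 lower, and 0 to 6 of the 7 over the implied tests. For the implied tests, genes passing over the whole table were not counted in these fits, so no loss particular to the 7 can be read from them. Without either double negative replicate, 640 genes reached the count minimum and were tested, against 754 with all libraries. The part of this in the fewer lower calls was not tested. A group then has 1 library, assumed to vary like the other group. The ratio of *col6a3* to *col6a1* differed by 0.34 to 0.53 and that of *fbn2b* to *fbn1* by -1.21 to -0.44 on the log2 scale. No paired analysis was possible because the Venus positive libraries carry the numbers 3 and 4 in the table, which match no sample label. Rounding to the nearest whole number was not run, since the Venus positive counts came only as values already raised. Depth limits *fbn1* most, with 8 and 11 reads in the double negative libraries.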
